A study of Mus musculus with 16 samples.

Results

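The 43 genes described here encode the machinery that makes ribosomes. They were taken from a list of ribosome biogenesis and RNA polymerase I genes, matched by Entrez gene identifier and mouse symbol, and all 43 were found among the 27179 gene identifiers of the count table and passed its filter on low counts. In the nucleolus, RNA polymerase I (Pol I) copies the ribosomal DNA repeats into a long precursor RNA, with Ubtf and Rrn3 acting at initiation. Small nucleolar ribonucleoproteins (snoRNPs) guide its chemical modification, the small-subunit processome folds and cuts the part that becomes the small subunit, and a separate set of assembly factors matures the large subunit. Growing and dividing cells are known to invest heavily in this pathway, and the transcription factor MYC is known to activate many of its genes.

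RNA was sequenced from iBMDM MyD88-AGF, an immortalised line of mouse macrophages derived from bone marrow, genotype MyD88-AGF WT in every group. Untreated cells and cells given lipopolysaccharide (LPS, a bacterial cell-wall component) at 10 ng/mL for 6 h were compared, with 4 libraries in each of 4 groups. Responders were LPS-treated cells sorted for high side scatter (SSChi), bystanders were LPS-treated cells sorted for low side scatter (SSClo), and the LPS pool and the untreated group passed the sorter with no gate, after the gated cells had been collected. Nothing in the labels states that replicates were cultured apart, so a p-value here speaks only of the spread among these libraries, and that spread may be technical.

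Depth ran from 15287344 to 25193162 counts per library. All 10 macrophage markers were present, at 3810 to 5760 CPM in sum (CPM, counts scaled to a common library size). Neural transcripts stood apart in 6 libraries (LPS pool 3 and 4, bystander 3 and 4, responder 1, untreated 1), at 8.81 to 15.2 CPM summed over 19 markers, against 1.28 to 2.37 CPM in the other 10. These 19 of 28 listed markers were those with a median under 1 CPM, a rule chosen after seeing the data. Over all 28 the sums ran from 330 to 529 CPM, and the rule planned beforehand found 0 libraries. Bystander 3 and 4 also stood apart from bystander 1 and 2 on LPS response genes, with Il6 at 19.7 and 20.2 against 5.9 and 6 CPM and Nos2 at 33.2 and 34.8 against 11.3 and 10.8 CPM. Summed levels of 6 fibroblast markers ran from 1.94 to 106 CPM. Replicate 3 was the highest of each group, at 106 CPM in the LPS pool, 76.9 in bystanders, 30.3 in responders and 30.8 in untreated cells. The lymphocyte markers Cd3e, Cd3g and Ncr1 had no read in any library.

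Untreated macrophages carried the most RNA of this machinery and bystanders, on the scale used here, the least. Counts in the 43 genes made up 1.22% ± 0.00561 (SD, n = 4) of all counts in the untreated libraries, 0.884% ± 0.00529 in the LPS pool, 0.817% ± 0.00346 in responders and 0.81% ± 0.00555 in bystanders, with no scaling applied. These shares did not overlap between untreated and LPS-treated libraries, and those of responders and bystanders overlapped. Scaled by library totals alone, all genes tested also had medians below 0 against untreated cells. On the log2 scale these were -0.36 in the LPS pool, -0.41 in responders and -0.18 in bystanders. For the 43 genes they were -0.52, -0.64 and -0.62. Levels are CPM on library sizes scaled by TMM (trimmed mean of M-values), and a gene was called higher or lower at an adjusted p under 0.05 in edgeR's quasi-likelihood test, adjusted over all 12589 genes tested. In bulk RNA, fewer cells of a type and less RNA per cell cannot be told apart.

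Against untreated cells, the LPS pool was lower for 33 of the 43 genes, higher for 5 and not called for 5. Calls were frequent, with 37.8% of all genes tested lower and 34.1% higher in this comparison. The median difference was -0.19 on the log2 scale for the 43 and -0.03 over all genes tested. By at least 1.5-fold, 5 of the 43 were lower (12.4% of all genes) and 0 higher (15%). The calls of Mybbp1a, Gar1, Nhp2, Wdr43 and Noc2l did not hold with each library left out in turn. They were lost, with adjusted p up to 0.293 in edgeR's quasi-likelihood test, without LPS pool 3 or 4 or untreated 2, 3 or 4 for Mybbp1a, LPS pool 1 or 2 or untreated 3 or 4 for Gar1, LPS pool 4 or untreated 1 or 2 for Nhp2, LPS pool 2 or untreated 3 for Wdr43, and LPS pool 2 or 3 or any untreated library for Noc2l.

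In bystanders 39 of the 43 were lower than in untreated cells, where 32.9% of all genes were lower, and 2 were higher, where 34.1% were. Their median was -0.43 on the log2 scale against 0.01 over all genes, and 8 were lower by at least 1.5-fold (9.09% of all genes) and 0 higher (12.9%). In responders 35 were lower and 4 higher than in untreated cells, against a background of 38.5% and 36.5%, with a median of -0.26 against -0.02, and 6 were lower by at least 1.5-fold (15.6%) and 0 higher (17.1%). For responders against untreated cells the calls of Nop56 and Wdr43 did not hold with each library left out in turn. All 3 comparisons share the untreated libraries. With library totals alone 43 were lower in the LPS pool, 43 in responders and 41 in bystanders, where 63.8%, 65.4% and 52.2% of all genes were lower. Without the 6 libraries with neural transcripts, which include bystander 3 and 4, the numbers lower were 31, 36 and 39.

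Set against each other, responders were higher than bystanders for 26 of the 43 genes, lower for 7 and not called for 10, where 34.7% of all genes tested were higher and 35.3% lower. The median difference was 0.15 on the log2 scale for the 43 and -0.01 over all genes tested. This direction depended on the scaling, since by library totals 19 were lower and 11 higher (53.2% and 20.5% of all genes) with a median of -0.04, while that of all genes moved by -0.19 to -0.20. Without the 6 libraries with neural transcripts 25 were higher and 7 lower on the TMM scale. The members' median lay above that of all genes under either scaling. A scaling factor shifts all genes of a library alike, so the second scaling is no separate check of this gap. Only Rrp9 and Nop56 differed by at least 1.5-fold, a size that 11.6% of all genes passed as higher and 12.4% as lower.

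**Figure D1:**
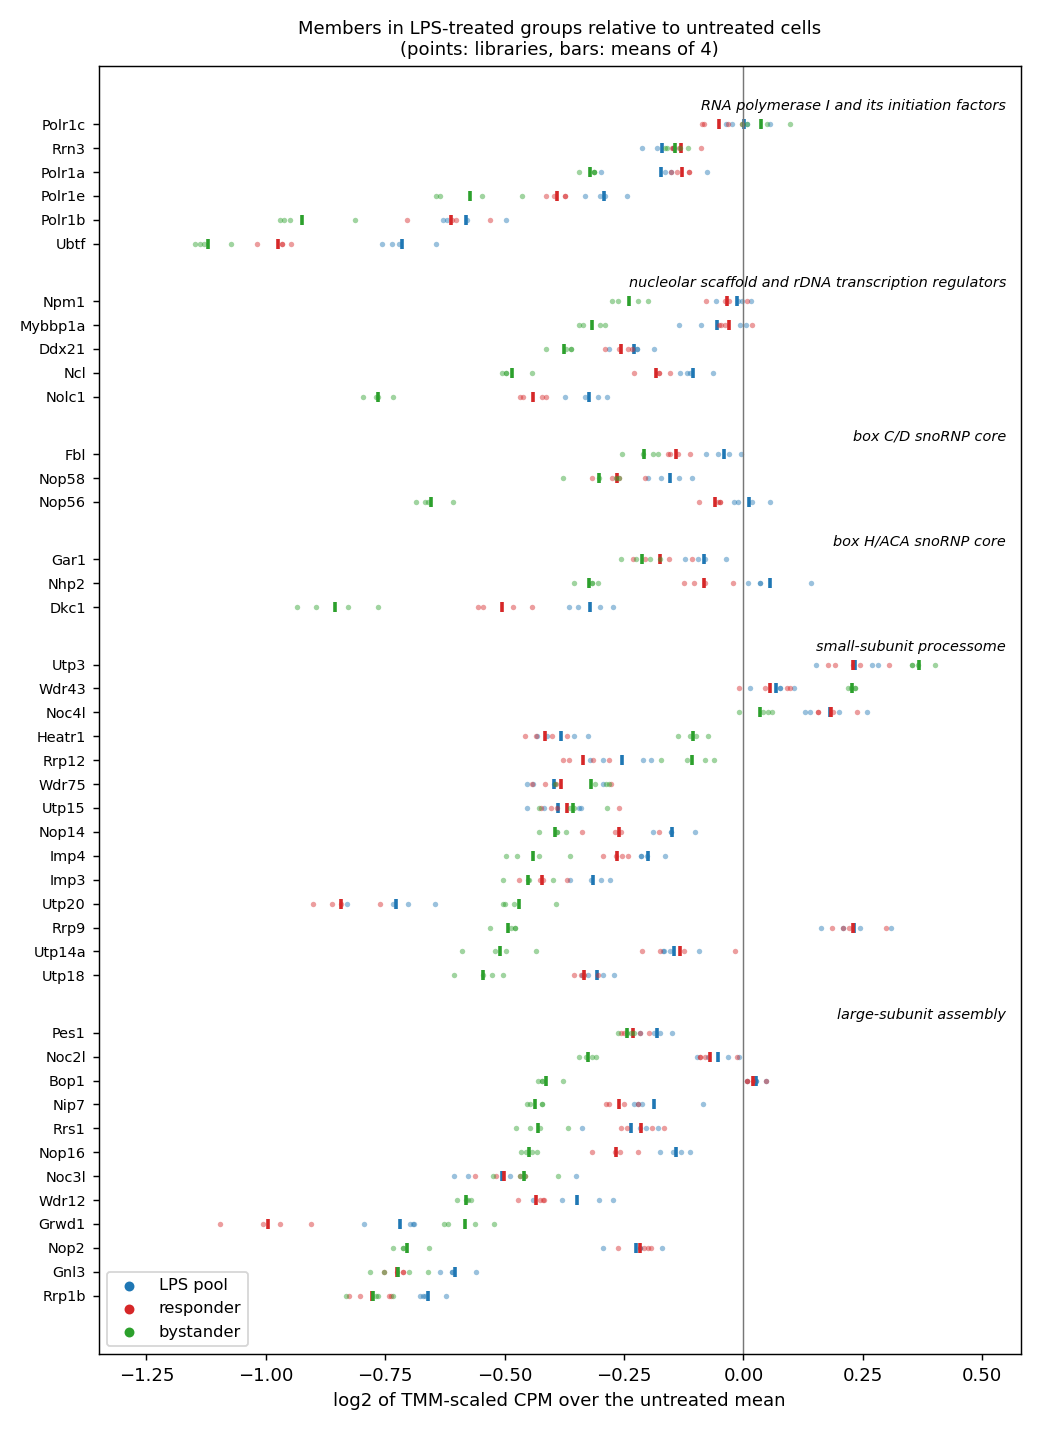
Log2 of TMM-scaled CPM over the untreated mean for each of the 43 genes, grouped by role, in LPS pool, responder and bystander libraries (points) with the means of 4 libraries (bars). Most points lie below 0 in all 3 groups, with median fitted differences of -0.19, -0.26 and -0.43 (log2) in that order, and with library totals alone every gene in the LPS pool and in responders was below 0.

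The comparison of the LPS pool with untreated cells and that of responders with bystanders share no library, but they run between the same 2 sets of libraries. Deviations of same-numbered libraries from their group means went together for responders and untreated cells (correlations of 0.17 to 0.6) and for bystanders and the LPS pool (0.39 to 0.47), and those across the sets ran from -0.47 to 0.29. A difference between the sets would enter the 2 comparisons with opposite signs, and its part in the counts that follow was not tested. Within the sets, 35 of the 43 genes were lower in responders than in untreated cells (38.5% of all genes). In bystanders 32 were lower than in the LPS pool (32.9%). With library totals alone the numbers lower were 43 (65.4%) and 21 (21.9%), and 12 were higher in bystanders than in the LPS pool (47.3%). Over the 2 comparisons, 19 of the 43 genes were lower with LPS and higher in responders than in bystanders, a combination held by 5.31% of all genes tested. With library totals alone 11 of the 43 showed it, against 5.97% of all genes. The combination lower with LPS and lower in responders was held by 4 of the 43 and by 23.1% of all genes tested. For 25 of the 43 genes the 4 bystander libraries lay below all other 12 libraries, as they did for 10.2% of all genes, and with library totals alone for 10 of the 43 against 8.47%. The 4 untreated libraries lay above the other 12 for 28 of the 43 genes, against 19% of all genes, and for 40 against 40.1% with library totals alone. Bystanders lay above all others for Wdr43 and Utp3 (12.7% of all genes), responders below all others for Grwd1 (5.25%) and untreated libraries below all others for Utp3 (18.9%).

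**Figure D2:**
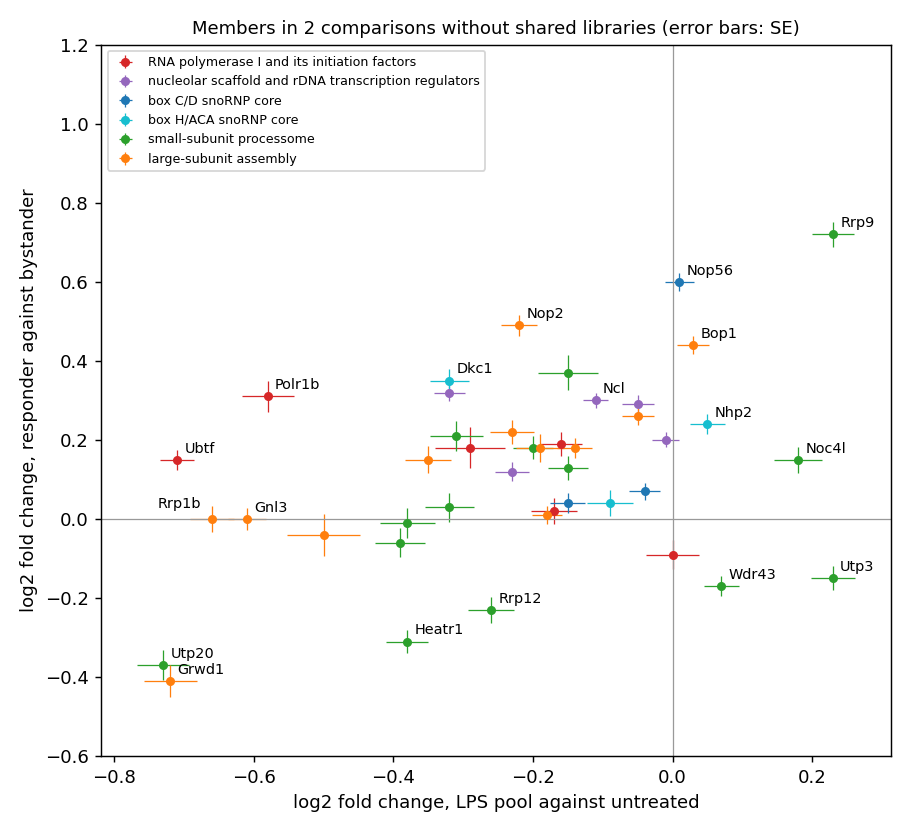
Log2 fold change of the LPS pool against untreated cells (horizontal) and of responders against bystanders (vertical) for the 43 genes, coloured by role, on the TMM scale, with error bars of 1 SE. The upper left field, lower with LPS and higher in responders, includes the 19 genes called in both directions, which were 11 with library totals alone. Rrp9 lies at 0.23 and 0.72, Grwd1 at -0.72 and -0.41.

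Promoter sequence was at hand for 38 of the 43 genes, taken from RefSeq for GRCm38.p6, from 250 bases before to 50 bases from the start of transcription. The E-box CACGTG, the hexamer that MYC and MAX dimers are known to bind and that reads the same on both strands, occurred in 9 of these (23.7%), against 12% of the 9701 genes tested that had a promoter. Those 9 were Rrn3, Mybbp1a, Wdr43, Utp18, Utp20, Imp4, Pes1, Nop2 and Grwd1. Of them 4 were higher in responders than in bystanders, 3 were lower and 2 were not called. The other motifs searched on both strands were CCGGAAG, an ETS-type site, in 36.8% of the 38 against 20.7%, CCAAT in 39.5% against 43.2%, and GGGCGG, a GC box, in 76.3% against 67.6%. A match is only a run of letters in this window, not evidence of a bound factor.

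Below, the promoters of 4 E-box genes are shown because Nop2 and Mybbp1a were higher in responders while Utp20 and Grwd1 were lower, with CACGTG in capitals. The start of transcription counts as position 1. The hexamer began 60 bases upstream of it in Nop2 (chr6:125131633-125131932, plus strand). It began at position 41 in Mybbp1a (chr11:72441077-72441376, plus strand), 38 in Utp20 (chr10:88826765-88827064, minus strand) and 35 in Grwd1 (chr7:45830740-45831039, minus strand). The start used for Grwd1 lies 205 bases inside the annotated end of the gene, and the other 4 starts are at the annotated ends. Rrp9, the member that differed most between responders and bystanders, held no CACGTG in its window (chr9:106477059-106477358, plus strand), and its 2 CCAAT boxes, 126 and 85 bases upstream, are in capitals.
Nop2: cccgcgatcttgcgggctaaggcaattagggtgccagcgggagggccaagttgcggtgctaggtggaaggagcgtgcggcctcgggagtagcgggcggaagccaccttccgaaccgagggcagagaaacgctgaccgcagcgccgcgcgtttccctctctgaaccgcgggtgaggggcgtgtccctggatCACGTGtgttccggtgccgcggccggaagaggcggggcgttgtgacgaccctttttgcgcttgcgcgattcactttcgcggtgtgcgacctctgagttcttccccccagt
Mybbp1a: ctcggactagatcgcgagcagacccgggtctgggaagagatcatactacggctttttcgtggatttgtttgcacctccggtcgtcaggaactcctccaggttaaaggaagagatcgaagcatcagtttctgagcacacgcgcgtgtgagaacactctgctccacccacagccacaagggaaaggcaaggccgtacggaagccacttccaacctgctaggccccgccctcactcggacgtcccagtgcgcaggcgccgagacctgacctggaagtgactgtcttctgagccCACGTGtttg
Utp20: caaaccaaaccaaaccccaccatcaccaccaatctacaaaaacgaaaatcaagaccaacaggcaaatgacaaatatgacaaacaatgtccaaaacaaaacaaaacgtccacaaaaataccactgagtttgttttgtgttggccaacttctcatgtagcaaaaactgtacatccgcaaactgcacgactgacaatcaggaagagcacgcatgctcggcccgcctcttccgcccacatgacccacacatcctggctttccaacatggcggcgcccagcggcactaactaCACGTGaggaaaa
Grwd1: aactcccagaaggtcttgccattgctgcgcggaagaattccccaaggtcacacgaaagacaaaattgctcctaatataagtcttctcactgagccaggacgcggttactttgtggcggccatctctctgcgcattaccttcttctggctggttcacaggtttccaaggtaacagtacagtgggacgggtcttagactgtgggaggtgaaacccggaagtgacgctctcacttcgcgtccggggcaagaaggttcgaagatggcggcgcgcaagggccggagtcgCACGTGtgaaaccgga
Rrp9: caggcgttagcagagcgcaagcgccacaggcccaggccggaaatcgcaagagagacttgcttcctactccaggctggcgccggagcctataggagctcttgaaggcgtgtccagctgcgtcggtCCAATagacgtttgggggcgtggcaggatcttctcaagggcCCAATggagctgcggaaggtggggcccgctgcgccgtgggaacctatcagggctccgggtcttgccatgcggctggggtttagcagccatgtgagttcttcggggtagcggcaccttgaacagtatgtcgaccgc

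Of the Pol I subunits and initiation factors, 5 of 6 were lower in the LPS pool than in untreated cells. In responders 4 were higher and 1 lower than in bystanders (1 and 2 with library totals alone). Among all genes tested 37.8% were lower in the LPS pool. In responders 34.7% were higher and 35.3% lower than in bystanders (20.5% and 53.2% with library totals alone). These shares also stand beside the role groups below. Ubtf, the HMG-box protein that coats active ribosomal DNA (Entrez 21429, chromosome 11, 102304560 to 102323649), was at 328, 326, 326 and 332 CPM in untreated libraries. It was at 199, 210, 197 and 194 in the LPS pool, 170, 168, 162 and 168 in responders and 149, 156, 150 and 148 in bystanders. The 4 groups did not overlap, and the order untreated, LPS pool, responder, bystander held for every library. Ubtf fell 1.64-fold in the LPS pool (log2 -0.71 ± 0.024 SE, adjusted p = 5.22e-36, edgeR's quasi-likelihood test) and 2.18-fold in bystanders. Its 1.11-fold excess in responders over bystanders turned to a log2 difference of -0.04 with library totals alone.

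Polr1b, the second largest Pol I subunit (chromosome 2, 129100970 to 129128060), was at 99.6, 94.2, 93.8 and 95.7 CPM in untreated libraries and at 64.2, 67.9, 62 and 62.3 in the LPS pool. Responders had 63.1, 66.3, 62.8 and 58.8 CPM and bystanders 49.2, 48.9, 54.5 and 49.6. Responders and the LPS pool overlapped, and bystanders lay below both. Polr1b was 1.89-fold lower in bystanders than in untreated cells (log2 -0.92 ± 0.037 SE, adjusted p = 1.99e-31, edgeR's quasi-likelihood test) and 1.24-fold higher in responders than in bystanders (adjusted p = 5e-10). Polr1a, the largest subunit, and Polr1e, a subunit of a Pol I-specific heterodimer, were 1.25-fold and 1.49-fold lower in bystanders than in untreated cells. Rrn3, which joins the polymerase to the promoter complex, fell by 0.17 on the log2 scale in the LPS pool and differed by 0.02 between responders and bystanders (adjusted p = 0.693). Polr1c, a subunit that Pol I shares with RNA polymerase III, was at 58.7 ± 2.36 CPM in untreated cells and 58.7 ± 1.69 in the LPS pool. Its call as lower in responders than in bystanders (56.6 ± 1.61 against 60.3 ± 1.9 CPM, adjusted p = 0.0363) was lost without bystander replicate 1 or 2 or responder replicate 1, 2 or 3, with adjusted p from 0.055 to 0.163.

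All 5 nucleolar scaffold proteins and ribosomal DNA regulators were higher in responders than in bystanders, and with library totals alone 3 were higher and Ddx21, an RNA helicase, was lower by -0.07 on the log2 scale. Ncl, nucleolin, an abundant nucleolar RNA-binding protein, was at 2190, 2230, 2200 and 2240 CPM in untreated libraries and at 2050, 2040, 2020 and 2120 in the LPS pool. Responders had 1890, 1960, 1990 and 1960 CPM and bystanders 1560, 1630, 1570 and 1570. Bystander libraries lay apart below all others. Ncl was 1.23-fold higher in responders than in bystanders (log2 0.3 ± 0.018 SE, adjusted p = 1.76e-22, edgeR's quasi-likelihood test). Nolc1, a chaperone of snoRNPs, was 1.25-fold lower in the LPS pool and 1.7-fold lower in bystanders than in untreated cells. Npm1, nucleophosmin, a nucleolar chaperone, was at 1570 ± 15.8 CPM in untreated cells, 1560 ± 32.8 in the LPS pool, 1540 ± 38.5 in responders and 1330 ± 35 in bystanders, so that only bystanders differed from untreated cells by the test. Mybbp1a, known to repress ribosomal DNA transcription and to act in RNA processing, was 1.25-fold lower in bystanders than in untreated cells and 1.22-fold higher in responders than in bystanders.

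Of the snoRNP core proteins, 4 of 6 were higher in responders than in bystanders and none was lower, but 2 were higher and 3 lower with library totals alone. Nop56, a scaffold of the box C/D particles that guide ribose methylation (Entrez 67134, chromosome 2, 130274367 to 130279313), was at 350, 347, 341 and 352 CPM in untreated libraries. It was at 343, 352, 345 and 361 in the LPS pool, 336, 335, 326 and 336 in responders and 220, 228, 216 and 219 in bystanders. Untreated, LPS pool and responder libraries lay close together, responders 1.04-fold below untreated cells, and bystanders far below them. The call of Nop56 as lower in responders than in untreated cells was lost without responder 3 (adjusted p = 0.0632, edgeR's quasi-likelihood test). It was also lost in the test of DESeq2 (adjusted p = 0.0822). Nop56 was 1.51-fold higher in responders than in bystanders (log2 0.6 ± 0.022 SE, adjusted p = 1.69e-33, edgeR's quasi-likelihood test), and 0.41 with library totals alone. Its LPS pool did not differ from untreated cells by the test (log2 0.01, adjusted p = 0.661). Its partners moved less, with Nop58 at 207 ± 6.38 CPM in responders and 201 ± 7.19 in bystanders (adjusted p = 0.158), and with Fbl, the methyltransferase itself, at 282 ± 3.83 and 268 ± 6.41 (adjusted p = 0.0031). The call of Fbl was lost without the 6 libraries with neural transcripts (adjusted p = 0.0599).

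Dkc1, the pseudouridine synthase of the box H/ACA particles, was at 194, 199, 193 and 202 CPM in untreated libraries and 160, 153, 155 and 163 in the LPS pool. Responders had 135, 141, 134 and 145 CPM and bystanders 116, 106, 111 and 103. None of these groups overlapped. Dkc1 fell 1.25-fold in the LPS pool and 1.81-fold in bystanders against untreated cells, and was 1.27-fold higher in responders than in bystanders (log2 0.35 ± 0.03 SE, adjusted p = 1.01e-15, edgeR's quasi-likelihood test). Nhp2, which shares the particle, was at 265 ± 8.05 CPM in responders and 224 ± 3.46 in bystanders, and Gar1 at 76 ± 2.93 and 74 ± 1.82, the latter not called (adjusted p = 0.316).

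Counts of 6 members may include reads from snoRNA genes nested in their introns, 18 in all, among them Snora75 and Snord82 in Ncl and Snord110 and Snord57 in Nop56. The spans of 13 members, among them Nop56, Dkc1 and Gnl3, overlap that of another annotated gene. Whether the counting used strand is not given in the sources used here, so reads of such pairs, for example Nop56 and Idh3b or Bop1 and Mroh1, could not be separated.

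The small-subunit processome held members that moved in opposite directions, as did all genes tested (34.7% higher and 35.3% lower in responders than in bystanders). Of 14 members 6 were higher and 5 lower in responders than in bystanders (2 and 8 with library totals alone), and in the LPS pool 10 were lower and 4 higher than in untreated cells (14 lower with library totals alone). Rrp9, the protein that binds the U3 snoRNA (Entrez 27966, chromosome 9, 106477309 to 106485415), was at 109, 106, 112 and 109 CPM in untreated libraries and 122, 135, 129 and 126 in the LPS pool. Responders had 134, 126, 124 and 127 CPM and bystanders 75.5, 78.2, 77.8 and 78.3. Responders and the LPS pool overlapped and lay above untreated cells, and bystanders lay below them. Rrp9 was 1.65-fold higher in responders than in bystanders (log2 0.72 ± 0.031 SE, adjusted p = 1.12e-29, edgeR's quasi-likelihood test) and 1.41-fold lower in bystanders than in untreated cells. Its rise of 1.17-fold in the LPS pool turned to a log2 difference of -0.10 with library totals alone.

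Processome members that were lower in responders than in bystanders were Heatr1, Wdr43, Utp3, Utp20 and Rrp12, and all 5 stayed lower with library totals alone. Utp20, a very large helical-repeat scaffold, was at 98.8, 106, 95 and 100 CPM in untreated libraries and 60.1, 61.4, 63.9 and 56.2 in the LPS pool. Responders had 55, 53.5, 59 and 55.7 CPM and bystanders 70.7, 76.2, 70.5 and 71.6. Bystanders lay between untreated cells and the other LPS-treated groups. Utp20 was 1.29-fold lower in responders than in bystanders (log2 -0.37 ± 0.038 SE, adjusted p = 3.56e-13, edgeR's quasi-likelihood test) and fell 1.65-fold in the LPS pool. Heatr1, a subunit of the complex that also promotes ribosomal DNA transcription, was at 120, 121, 119 and 124 CPM in untreated libraries and at 115, 113, 112 and 110 in bystanders. It was at 89.7, 96.5, 94.6 and 91 in the LPS pool and 89.6, 93.7, 88.1 and 91.7 in responders, so that these last 2 groups overlapped and lay below bystanders.

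Wdr43 and Utp3 were the only members called higher in bystanders than in untreated cells. Wdr43, a partner of Heatr1 in the same complex, was at 183, 187, 174 and 181 CPM in untreated libraries and 212, 211, 213 and 213 in bystanders (log2 0.23 ± 0.025 SE, adjusted p = 3.14e-12, edgeR's quasi-likelihood test), a call that was lost with library totals alone (log2 0.03, adjusted p = 0.237). Utp3, known in yeast as Sas10, was at 97.5, 96.3, 92.6 and 95.5 CPM in untreated libraries, 115, 112, 106 and 116 in the LPS pool, 109, 118, 113 and 108 in responders and 122, 123, 126 and 122 in bystanders. Its untreated libraries lay below all others and its bystander libraries above all others, and with library totals alone it was still higher in bystanders (log2 0.18) but lower in the LPS pool (log2 -0.10). Of the rest, Utp14a, a cofactor of a processome helicase, was 1.3-fold higher in responders than in bystanders, while Utp15, Wdr75 and Imp3 did not differ by the test (adjusted p from 0.135 to 0.837). Imp4, Nop14, Noc4l and Utp18 were higher in responders on the TMM scale by 0.13 to 0.21 on the log2 scale, and with library totals alone Utp18 was at 0.02 and the other 3 between -0.06 and -0.01 on the log2 scale.

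**Figure D3:**
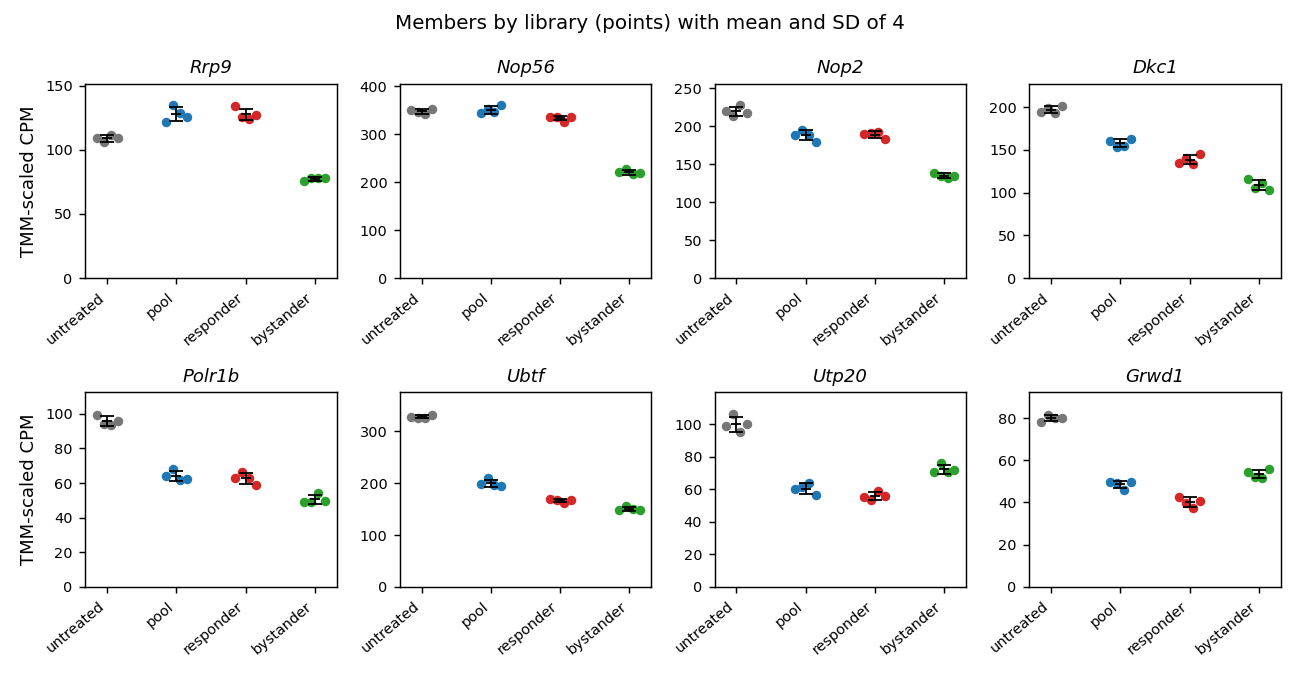
TMM-scaled CPM of selected members in each of the 16 libraries (points) with the mean and SD of 4 libraries per group. Bystander libraries lie below all others for Rrp9, Nop56 and Nop2, and responder libraries lie below all others for Grwd1 (37.4 to 42.7 CPM).

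Among the 12 large-subunit factors, 11 were lower in the LPS pool than in untreated cells and all 12 were lower in bystanders, also with library totals alone, where the LPS pool was lower for 12. Between responders and bystanders 7 were higher and 1 lower on the TMM scale, but 3 higher and 5 lower with library totals alone. Nop2, a methyltransferase acting on the large ribosomal RNA, was at 220, 213, 228 and 217 CPM in untreated libraries and 189, 195, 189 and 179 in the LPS pool. Responders had 190, 191, 192 and 183 CPM and bystanders 139, 134, 132 and 134. Responders and the LPS pool overlapped, between untreated cells above and bystanders below. Nop2 was 1.41-fold higher in responders than in bystanders (log2 0.49 ± 0.026 SE, adjusted p = 3.74e-25, edgeR's quasi-likelihood test), and 0.30 with library totals alone.

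Pes1, Bop1 and Wdr12 form the PeBoW complex, yet they differed in the comparison of the gates. Bop1 was at 216 ± 2.96 CPM in responders and 160 ± 2.65 in bystanders (1.35-fold higher, adjusted p = 4.61e-25, edgeR's quasi-likelihood test), Wdr12 at 66.4 ± 1.14 and 60 ± 0.529 (adjusted p = 0.000155), and Pes1 at 227 ± 4.38 and 225 ± 2.26 (adjusted p = 0.666). Against untreated cells Bop1 was not called in the LPS pool (217 ± 2.55 and 213 ± 5.22 CPM), while Wdr12 fell 1.27-fold and Pes1 1.13-fold. With library totals alone Wdr12 turned to -0.04 on the log2 scale between the gates and Bop1 stayed higher at 0.24.

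Grwd1, a WD-repeat protein whose yeast counterpart escorts a ribosomal protein (Entrez 101612, chromosome 7, 45825223 to 45830994), was at 78.1, 81.6, 80.2 and 80 CPM in untreated libraries and 49.6, 49.3, 46.1 and 49.5 in the LPS pool. Responders had 42.7, 39.8, 37.4 and 40.8 CPM and bystanders 54.2, 52.1, 51.8 and 55.7. No groups overlapped, and responders were the lowest. Grwd1 was 1.33-fold lower in responders than in bystanders (log2 -0.41 ± 0.041 SE, adjusted p = 8.18e-14, edgeR's quasi-likelihood test) and 1.64-fold lower in the LPS pool than in untreated cells. Gnl3, nucleostemin, a nucleolar GTPase, was at 181, 174, 174 and 179 CPM in untreated libraries, 114, 116, 116 and 120 in the LPS pool, 107, 108, 108 and 105 in responders and 105, 112, 109 and 103 in bystanders. It fell 1.52-fold in the LPS pool and 1.65-fold in bystanders, and its gated groups overlapped. Rrp1b fell 1.58-fold and 1.72-fold in the same comparisons, at 62.5 ± 1.92 CPM in responders and 62.5 ± 1.79 in bystanders. Noc3l fell 1.41-fold in the LPS pool, and Noc2l, Nop16, Nip7 and Rrs1 were 1.13-fold to 1.19-fold higher in responders than in bystanders on the TMM scale, of which Nop16 and Nip7 were at -0.01 on the log2 scale with library totals alone.

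Against the LPS pool, responders were lower for 16 members and higher for 0, where 9.49% of all genes tested were lower and 16% higher, and with library totals alone 29 were lower (19.4% of all genes) and 0 higher (8.52%). The largest of the 16 was that of Grwd1 at -0.28 on the log2 scale, and 0 reached 1.5-fold as lower (0.834% of all genes) or higher (0.183%). Calls of Gar1, Imp3 and Utp20 against the LPS pool did not hold with each library left out in turn. Their adjusted p then reached up to 0.156 in edgeR's quasi-likelihood test. Bystanders were lower than the LPS pool for 32 members and higher for 6 (Heatr1, Wdr43, Utp3, Utp20, Rrp12 and Grwd1), against 32.9% and 34.1% of all genes, and with library totals alone 21 were lower and 12 higher (21.9% and 47.3% of all genes). Rrp9 and Nop56 were 1.66-fold and 1.59-fold lower in bystanders than in the LPS pool, the 2 members lower by at least 1.5-fold (9.74% of all genes, with 10.6% higher and 0 members). In these comparisons collection order goes with the gate and cannot be told apart from it.

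**Figure D4:**
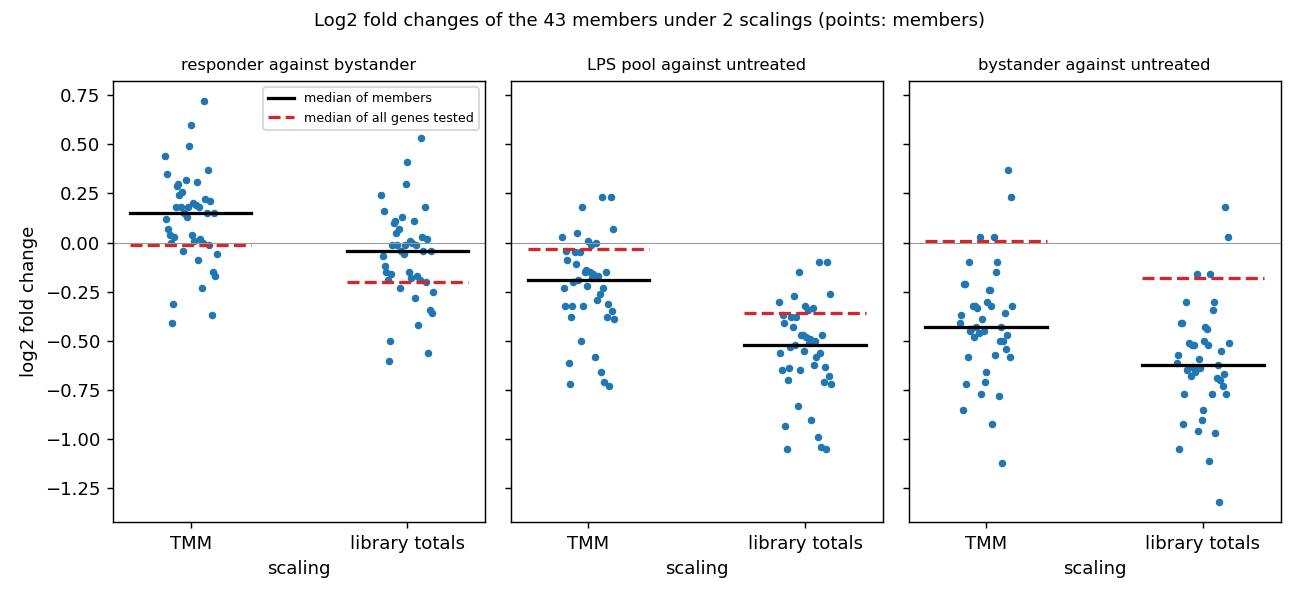
Log2 fold change of the 43 genes (points) in 3 comparisons under TMM scaling and with library totals alone, with the median of the 43 (solid) and of all genes tested (dashed). The responder against bystander values shift down, from a median of 0.15 to -0.04, and those of the LPS pool against untreated cells from -0.19 to -0.52.

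Pathway genes outside the 43 also moved in both directions, as did all genes tested. For the lists that follow, 34.7% of all genes were higher and 35.3% lower in responders than in bystanders. With library totals alone these shares were 20.5% and 53.2%. In the LPS pool 34.1% were higher and 37.8% lower than in untreated cells (17.6% and 63.8% with library totals alone). Of 34 other small-subunit factors 19 were higher and 9 lower in responders than in bystanders (9 and 19 with library totals alone), and 21 were lower and 7 higher in the LPS pool than in untreated cells (30 and 3). Dcaf13, a processome protein, was at 117 ± 2.99 CPM in responders, 70.3 ± 2.15 in bystanders, 68.1 ± 1.32 in untreated cells and 113 ± 5 in the LPS pool. Utp11 was 1.6-fold higher in responders than in bystanders. In the opposite direction, Tsr1, a late 40S maturation factor, was 1.5-fold lower in responders and fell 1.79-fold in the LPS pool, and Nat10, an RNA acetyltransferase, fell 1.74-fold there.

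Of 39 other large-subunit factors 18 were higher and 10 lower in responders than in bystanders (10 and 23 with library totals alone), and in the LPS pool 20 were lower and 8 higher than in untreated cells (36 and 3). Sbds, which helps release a factor that blocks subunit joining, was at 68 ± 1.2 CPM in responders, 39.6 ± 0.87 in bystanders, 49.3 ± 1.15 in untreated cells and 67.5 ± 1.41 in the LPS pool. Tex10 was 1.63-fold higher in responders than in bystanders and 2.05-fold lower in bystanders than in untreated cells. Mdn1, a very large ATPase that strips assembly factors, fell 1.61-fold in the LPS pool, and Ppan 1.58-fold.

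Of 12 other snoRNP factors 7 were higher and 2 lower in responders than in bystanders (3 and 4 with library totals alone). Naf1, an H/ACA assembly factor, was at 31.3 ± 2.71 CPM in responders and 20.9 ± 1.6 in bystanders, Shq1, another one, at 20 ± 0.878 and 17 ± 0.746, and Snu13, which binds box C/D RNA, at 158 ± 2.3 and 126 ± 4.45. Of 17 other Pol I genes 6 were higher and 5 lower (2 and 11 with library totals alone). Among all genes tested 34.7% were higher and 35.3% lower (20.5% and 53.2%). Cd3eap, a Pol I-specific subunit and the partner of Polr1e, was at 97.6 ± 3.26 CPM in untreated cells, 79.6 ± 2.96 in the LPS pool, 68.8 ± 1.83 in responders and 36.3 ± 0.838 in bystanders. It was 1.89-fold higher in responders than in bystanders (adjusted p = 6.38e-31, edgeR's quasi-likelihood test) and 2.69-fold lower in bystanders than in untreated cells. Baz2a, which is known to silence ribosomal DNA repeats, was 1.56-fold higher in responders than in bystanders. Znrd1, a small Pol I subunit, and Taf1b, a subunit of the Pol I promoter factor, were 1.42-fold and 1.4-fold higher in the LPS pool than in untreated cells.

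The nuclear exosome, which trims precursor RNA, had 7 of 15 genes higher and 3 lower in responders than in bystanders (4 and 8 with library totals alone) and 10 lower and 5 higher in the LPS pool than in untreated cells (13 and 1). Mphosph6 and Exosc1 were 1.44-fold and 1.27-fold higher in responders, and Dis3 and Exosc2 fell 1.43-fold and 1.37-fold in the LPS pool. RNA polymerase III makes the 5S RNA and transfer RNAs. Of its 22 genes 12 were lower and 4 higher in responders than in bystanders (16 and 1 with library totals alone), among them Gtf3c5 (1.67-fold lower) and Polr3gl (1.61-fold lower). Polr3g and Gtf3a fell 1.89-fold and 1.59-fold in the LPS pool. Of 11 further regulators of Pol I and ribosomal DNA, not all of them repressors (Sirt7 is included), 9 were lower in the LPS pool than in untreated cells. The number higher was 1 (11 lower and 0 higher with library totals alone). Kdm2b was 1.89-fold and Rb1 1.55-fold lower there. Rb1 was 1.68-fold and Sirt1 1.6-fold lower in responders than in bystanders.

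Of 83 cytosolic ribosomal protein genes tested, 80 were higher in the LPS pool than in untreated cells, while 33 of the 43 biogenesis genes were lower there. Among all genes tested 34.1% were higher and 37.8% lower. By library totals 27 of the 83 ribosomal protein genes were higher and 22 lower, and all 43 biogenesis genes were lower. The shares of all genes were then 17.6% higher and 63.8% lower. Between responders and bystanders 77 of the 83 were higher and 0 lower (34.7% and 35.3% of all genes). By library totals 9 were higher and 31 lower (20.5% and 53.2%).

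Myc RNA itself was highest in responders and in the LPS pool. It was at 1.04, 0.675, 0.823 and 0.501 CPM in untreated libraries (12 to 23 reads), 12.4, 11.8, 13.5 and 13.9 in the LPS pool, 14.1, 14.9, 13.2 and 17.2 in responders and 3.03, 3.09, 3.07 and 2.71 in bystanders. The 3 LPS-treated groups lay above untreated cells, and bystanders lay below the other LPS-treated libraries. Myc was 16.9-fold higher in the LPS pool than in untreated cells, 3.91-fold higher in bystanders than in untreated cells and 5.01-fold higher in responders than in bystanders (log2 2.32, adjusted p = 3.62e-28, edgeR's quasi-likelihood test). Of the 43 genes, 33 were lower in the LPS pool than in untreated cells, 35 in responders and 39 in bystanders (37.8%, 38.5% and 32.9% of all genes). Responders were higher than bystanders for 26 of the 43 on the TMM scale (34.7% of all genes). With library totals alone they were higher for 11 (20.5%) and lower for 19 (53.2%). A link between Myc RNA and the levels of the 43 genes was not tested.

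Genes of the MYC network moved in both directions. Of 12, 6 were higher and 5 lower in the LPS pool than in untreated cells (6 and 5 with library totals alone). Among all genes tested 34.1% were higher and 37.8% lower. In responders 5 were higher and 3 lower than in bystanders (5 and 5 with library totals alone), against 34.7% and 35.3% of all genes. Max, the partner of MYC, was at 172 ± 3.06 CPM in untreated cells, 280 ± 4.37 in the LPS pool, 299 ± 10.7 in responders and 293 ± 4.33 in bystanders. Mxd1, which competes with MYC for Max and represses, was at 10.1, 10, 10.2 and 9.81 CPM in untreated libraries, 260, 257, 257 and 259 in the LPS pool, 285, 292, 301 and 300 in responders and 158, 164, 160 and 163 in bystanders. It was 25.7-fold higher in the LPS pool than in untreated cells and 1.83-fold higher in responders than in bystanders. Mnt, another such repressor, was at 42.8 ± 1.26 CPM in untreated cells, 31.7 ± 1.51 in the LPS pool, 32.9 ± 1.73 in responders and 13 ± 0.773 in bystanders. Mga fell 1.75-fold in the LPS pool and was 1.8-fold lower in responders than in bystanders, Mlx was 1.4-fold and 1.34-fold higher in the same comparisons, and Mxd4 2.57-fold and 2.27-fold lower. Mycl was at or under 28 reads in every library and was higher in the LPS pool (adjusted p = 2.49e-08), and Mycn did not differ by the test in either comparison (adjusted p = 0.113 and 0.571). Mxi1 and Mxd3 were 1.17-fold and 1.72-fold lower in the LPS pool and not called between the gates, and Fbxw7, which targets MYC for degradation, was 1.45-fold higher in the LPS pool and 1.16-fold lower in responders than in bystanders.

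**Figure D5:**
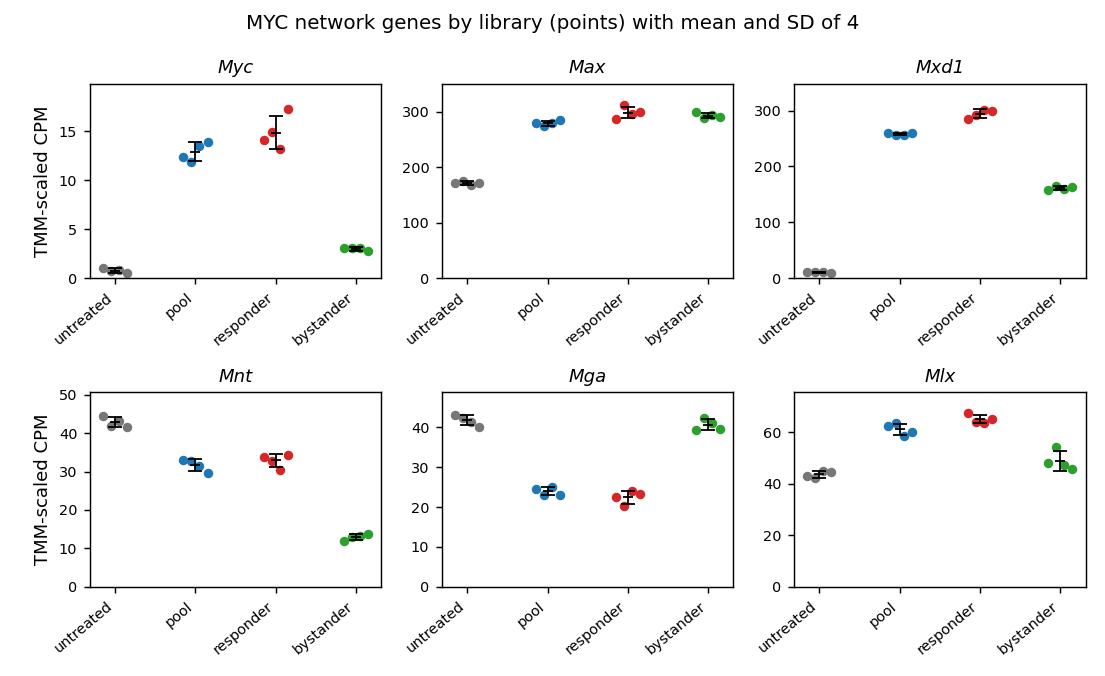
TMM-scaled CPM of 6 MYC network genes in each of the 16 libraries (points) with the mean and SD of 4 libraries per group. Myc and Mxd1 are lowest in untreated cells and lower in bystanders (2.97 and 161 CPM) than in responders (14.9 and 295 CPM), and Mnt is lowest in bystanders.

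Most proliferation markers were lower in each LPS-treated group than in untreated cells, and lower in responders than in bystanders. Summed over 20 genes they ran from 3900 to 3920 CPM in untreated libraries, 3340 to 3420 in bystanders, 2480 to 2580 in the LPS pool and 2270 to 2300 in responders, with no overlap. Between responders and bystanders 19 of the 20 were lower and 0 higher (35.3% and 34.7% of all genes tested). With library totals alone 20 were lower (53.2%). Mki67 was lower by 2.65-fold, Kif11 by 2.26-fold, Top2a by 1.68-fold and Pcna by 1.43-fold. Against untreated cells 20 were lower in the LPS pool (37.8% of all genes), 20 in responders (38.5%) and 16 in bystanders (32.9%). In bystanders 2 of the markers were higher (34.1%). The part of the proliferation markers in the results above was not tested. The LPS response genes Il1b, Tnf, Il6, Nos2, Cxcl10 and Nfkbia summed to 166 to 179 CPM in untreated libraries, 2230 to 2410 in bystanders, 10500 to 10900 in the LPS pool and 12000 to 12400 in responders. In bystanders Cxcl10 was 67.6-fold and Nfkbia 1.62-fold higher than in untreated cells. Il1b was at 7.79 and 9.03 CPM in bystander 1 and 2, overlapping the 6.43 to 9.05 CPM of untreated libraries, and at 64.1 and 65.1 in bystander 3 and 4, so its higher mean in bystanders rests on these 2 libraries.

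Transcript length moved with the comparisons over all genes. In the shortest of 6 transcript length bins with like numbers of genes the median difference of responders and bystanders was 0.07 on the log2 scale and in the longest -0.15, and for the LPS pool against untreated cells 0.13 and -0.13. Over the 43 members the rank correlation of length with the fold change was -0.15 for responders against bystanders and -0.47 for the LPS pool against untreated cells. Over the 11462 genes with a known length it was -0.16 in both comparisons. These values are a description over genes that share their libraries. The 7 members in the longest bin had a median of 0.15 for responders against bystanders, the 6 in the shortest 0.05. In the longest bin Heatr1 and Utp20 were at -0.31 and -0.37, and Polr1a, Ncl, Nop58, Imp4 and Wdr12 from 0.04 to 0.3. Bins rest on the longest annotated transcript of a gene, which need not be the one expressed here. The part of length in the results was not tested further.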

How the data were processed

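RNA of 16 libraries, 4 per group, was measured, and the authors deposited a single table with the raw count of reads in each gene. The submitters' processing notes name cutadapt 3.7 and fastp 1.1.0, HISAT2 2.2.2 with GRCm38 (mm10), and featureCounts 2.1.1, and per the labels' protocols all RNA integrity numbers were above 7.1. Not given in the sources used here are the annotation, the strandedness and how multi-mapped reads were handled, so genes with pseudogene copies, such as Npm1, are uncertain. Of 27179 identifiers, 25275 matched a symbol in RefSeq's gene table of GRCm38.p6, and the 1904 others (0.399% of counts) stayed in the tests. The table had 3 empty columns and 0 columns of other samples.

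The counts entered edgeR 4.0.16 (R 4.3.3; filterByExpr, TMM, robust quasi-likelihood, 1 mean per group over all 16 libraries, no covariate). Tests were two-sided F tests with Benjamini-Hochberg adjustment over 12589 genes, and every adjusted p of a gene is from this test unless another is named. Levels are means ± SD of 4 libraries, and ± SE follows log2 fold changes. TMM factors ran from 0.893 to 0.901 in responders, 0.93 to 0.937 in the LPS pool, 1.02 to 1.024 in bystanders and 1.168 to 1.173 in untreated libraries. The median biological coefficient of variation was 0.0357, and replicate pairs (24) differed beyond counting error, with chi-square per degree of freedom from 1.61 to 3.13. The script was tested on simulated data.

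Replicate numbers in the labels were checked for pairing by correlating deviations of same-numbered libraries from their group means. All 4 correlations were above 0.1 for responder and untreated (0.17 to 0.6) and for bystander and LPS pool (0.39 to 0.47), and others ran as low as -0.47.

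Named pathway genes were the 2 called genes of each list with the largest change between responders and bystanders and the 2 between the LPS pool and untreated cells, at a mean of at least 5 CPM, with the MYC network, the LPS response genes and 4 proliferation genes in full. The members and lists were chosen with earlier results of these data known. Transcript length is that of the longest protein-coding transcript in GENCODE. Alternatives were other scalings, no filter, DESeq2 1.42.0, a replicate block, fits of 2 groups, a 1.5-fold limit and libraries left out.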

Additional observations from a re-analysis of the deposited data

Results flagged for a closer look

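In 172 groups of 4 libraries (43 genes in 4 groups), 10 had a highest or lowest library set apart from the other 3 by Dixon's criterion, where chance alone gives about 1 in 20 groups. On the TMM scale, Polr1b was at 54.5 CPM in bystander 3 (others 48.9 to 49.6) and Ncl at 1630 CPM in bystander 2 (1560 to 1570). Mybbp1a was at 653 CPM in responder 1 (623 to 628), Nop56 at 326 CPM in responder 3 (335 to 336) and Wdr12 at 64.7 CPM in responder 1 (66.8 to 67.2). In the LPS pool, Nhp2 was at 309 CPM in library 4 (282 to 287), Nip7 at 94.5 CPM in library 4 (85.5 to 86.5), Grwd1 at 46.1 CPM in library 3 (49.3 to 49.6) and Rrp1b at 69.5 CPM in library 3 (66.9 to 67.4). Noc3l was at 42.8 CPM in untreated 4 (38.4 to 38.6). Of these libraries, LPS pool 3 and 4, bystander 3 and responder 1 are among the 6 with neural transcripts, and the part of these in the outlying values was not tested.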

How the results depend on the processing

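Scaling by library totals alone moved the median of all genes tested by -0.33 for the LPS pool, -0.38 for responders and -0.19 for bystanders against untreated cells, by -0.06 and 0.13 for responders and bystanders against the LPS pool, and by -0.19 for responders against bystanders, on the log2 scale, and the share of calls that were higher from 47.4% to 21.6% in the LPS pool, from 48.7% to 21.7% and 50.9% to 27.5% in responders and bystanders against untreated cells, from 62.7% to 30.6% and 50.9% to 68.4% against the LPS pool, and from 49.5% to 27.8% between the gates. Members then counted 11 higher and 19 lower for responders against bystanders, 0 higher for the LPS pool and for responders and 1 higher for bystanders against untreated cells, 12 higher and 21 lower for bystanders against the LPS pool and 29 lower for responders against it. Signs turned for responders against bystanders in Polr1a (0.00), Polr1e (-0.01), Ubtf (-0.04), Ddx21 (-0.07), Fbl (-0.12), Nop14 (-0.06), Noc4l (-0.04), Imp4 (-0.01), Wdr12 (-0.04), Nop16 (-0.01) and Nip7 (-0.01). They turned for the LPS pool against untreated cells in Nhp2 (-0.27), Rrp9 (-0.10), Wdr43 (-0.26), Utp3 (-0.10) and Noc4l (-0.15), and for responders against untreated cells in Rrp9 (-0.16), Wdr43 (-0.33), Utp3 (-0.16) and Noc4l (-0.20). For bystanders against the LPS pool they turned in Gar1 (0.01), Pes1 (0.07), Rrp1b (0.02) and Gnl3 (0.02). These changes come from the factor itself, which multiplies every gene of a library alike.

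Requiring 1.5-fold left 2 higher and 0 lower for responders against bystanders, 0 and 5 for the LPS pool, 0 and 6 for responders and 0 and 8 for bystanders against untreated cells, 0 lower for responders against the LPS pool and 0 and 2 for bystanders against it. Without a filter on low counts 3 were higher in the LPS pool than in untreated cells, and the cause was not tested. Leaving out 1 library at a time gave 26 to 27 higher and 6 to 7 lower for responders against bystanders. Against untreated cells it gave 4 to 5 higher and 30 to 33 lower for the LPS pool, 3 to 4 higher and 34 to 35 lower for responders and 2 higher and 39 lower for bystanders. Against the LPS pool it gave 0 higher and 14 to 16 lower for responders and 6 to 7 higher and 32 lower for bystanders. With the replicate block the numbers higher were 26, 5, 4, 2, 0 and 6 and the numbers lower 7, 33, 35, 39, 16 and 32 in the same order, so that pairing changed no count, also in fits of the 2 paired comparisons alone (4 higher and 35 lower, 6 higher and 32 lower). DESeq2 gave 26 higher and 6 lower for responders against bystanders and 6 and 30 for the LPS pool against untreated cells. The planned rule for libraries with neural transcripts, 5 times the median of the whole list, found 0 libraries and gave no value. By a rule chosen after seeing the data, which found 6, the numbers higher without them were 25, 4, 3, 2, 0 and 5 and the numbers lower 7, 31, 36, 39, 12 and 30. The lowest count of any member in any library was 386 (Polr1e in bystander 1), so counting error is small, but nested or overlapping genes could add reads.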
